A study of Mus musculus with 24 samples.

Results

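Immediate early genes are genes that cells switch on within minutes of a stimulus without making new protein first. The 10 genes described here, Egr1, Fos, Fosb, Jun, Junb, Atf3, Nr4a1, Ier2, Btg2 and Dusp1, were selected on earlier results from the same kidneys, in which they were lower 5d after myocardial infarction (MI) than after sham surgery. All 10 were found among the 56941 genes of the count table, and all 10 passed the count filter that kept 12780 genes for testing. The kidneys came from young adult male C57BL/6J wild-type mice. In the MI groups the left anterior descending coronary artery (LAD) was ligated permanently under isoflurane after buprenorphine, a non-reperfused model. Kidneys were taken 5d or 28d post-MI. The sham-operated mice had the same surgery without ligation, and their kidneys, taken 5d after surgery, were the controls for both times, so that at 28d post-MI the age of the mice and the time since surgery differed from the controls along with LAD ligation. The comparisons used 8 sham kidneys, 8 kidneys at 5d post-MI and 6 kidneys at 28d post-MI, and the labels number the kidneys within each group.

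Most of these genes encode transcription factors or brakes on the signals that induce them. Growth factors, calcium, cyclic AMP and cell stress raise them through phosphorylated factors already bound at their promoters, such as SRF with its ETS partners and CREB. Their mRNAs are short-lived, in part because AU-rich sequences draw decay factors. In the kidney they are best known as early transcripts of acute injury, for example after ischemia.

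Kidney mRNA was read from its 3′ ends by Massive Analysis of cDNA Ends (MACE), with 2280618 to 3786275 counts per kidney. Levels are given as CPM, counts scaled to the TMM-normalized library size. Markers of the proximal tubule summed to between 32740 and 67790 CPM in the 22 kidneys. The lowest sum was that of replicate 2 at 5d post-MI, and the next lowest, 47540 CPM, that of sham replicate 1. Markers of red blood cells summed to 2203 to 4123 CPM in sham kidneys, to 4963 to 18990 CPM at 5d post-MI and to 1809 to 5113 CPM at 28d post-MI, so that the 5d post-MI group lay wholly above the sham group. The 5 neutrophil markers never summed to more than 11.1 CPM, and none of them passed the count filter. Adrenal cortex markers, which do not belong to the kidney, exceeded 10 CPM in 3 kidneys, with 729 CPM in sham replicate 2, 548 CPM in sham replicate 6 and 66.5 CPM in replicate 5 at 5d post-MI. The part of these markers in the results below was not tested, other than by leaving out those 3 kidneys. In whole kidney RNA, fewer cells of a type and less RNA per cell cannot be told apart.

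All 10 immediate early genes had their lowest mean at 5d post-MI and their highest mean at 28d post-MI. Relative to sham kidneys, the log2 fold changes at 5d post-MI were between −2.67 for Fosb and −0.97 for Dusp1, with a median of −1.51 beside 0.0003 for all tested genes. Since this contrast was known when the genes were chosen, these values describe the genes and test nothing. Every gene was below the sham median in 8 of 8 kidneys at 5d post-MI. All 10 had an unadjusted p-value under 0.05 in edgeR's quasi-likelihood test, as had 3.96% of all tested genes in the downward direction. None had a Benjamini-Hochberg adjusted p-value under 0.05 in edgeR, which called 0.0156% of genes downregulated, while DESeq2 called 8 of the 10 and 0.156% of all genes downregulated. The plot of CPM by group shows each kidney.

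**Figure D1:**
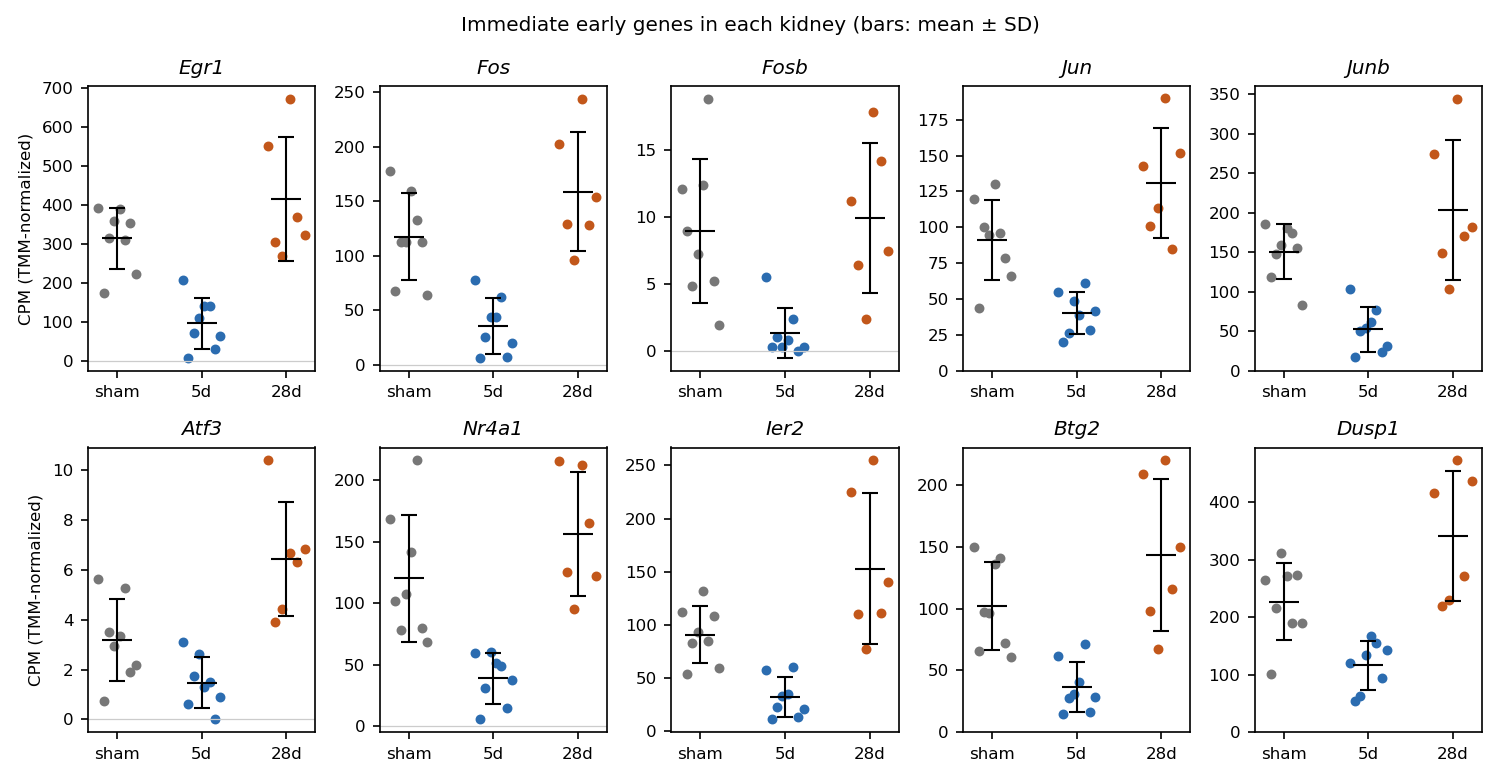
TMM-normalized CPM (y axis, linear, own scale for each gene) of the 10 immediate early genes in sham kidneys (grey, n = 8), at 5d post-MI (blue, n = 8) and at 28d post-MI (orange, n = 6), with 1 point per kidney in the order of its number and bars for mean ± SD. The mean at 5d post-MI is the lowest in every panel, and for Nr4a1 all 8 of them lie below every sham kidney.

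Egr1 encodes a zinc finger transcription factor that binds GC-rich promoter elements (ENSMUSG00000038418, GRCm38 chromosome 18, 34859823 to 34864984). Its level ran from 175 to 391 CPM in sham kidneys (median 335), from 7.87 to 207 CPM at 5d post-MI (median 91.3) and from 269 to 672 CPM at 28d post-MI (median 346). Among kidneys at 5d post-MI, 7 of 8 were below every sham kidney, and the kidney with 7.87 CPM, replicate 2, held 26 Egr1 counts against 470 or more in any sham kidney. The log2 fold change was −1.71 (standard error, SE, 0.39) at 5d post-MI. Nr4a1, an orphan nuclear receptor of the NUR77 type (ENSMUSG00000023034, chromosome 15, 101254269 to 101274795), ran from 68.3 to 216 CPM in sham kidneys (median 104), from 5.45 to 60.7 CPM at 5d post-MI (median 43.4) and from 95.3 to 216 CPM at 28d post-MI (median 145). It was the only one of the 10 genes whose sham and 5d post-MI kidneys did not overlap, against 0.0156% of all tested genes with non-overlapping lower groups, and its log2 fold change was −1.62 (SE 0.35).

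Fos, Fosb, Jun and Junb encode subunits of AP-1, a dimeric transcription factor in which a Fos protein pairs with a Jun protein. Fos (ENSMUSG00000021250, chromosome 12, 85473890 to 85477273) had 64.1 to 178 CPM in sham kidneys (median 113.0), 6.35 to 78.0 CPM at 5d post-MI (median 34.6) and 96.1 to 244 CPM at 28d post-MI (median 141). The sham and 5d post-MI groups overlapped by 1 kidney at 5d post-MI, replicate 1, which was above the lowest sham kidneys, and the log2 fold change was −1.70 (SE 0.37). Fosb (ENSMUSG00000003545, chromosome 7, 19302696 to 19310051) was sparse, with 1.93 to 18.8 CPM in sham kidneys (median 8.09), 0 to 5.54 CPM at 5d post-MI (median 0.582) and 2.42 to 17.8 CPM at 28d post-MI (median 9.33). Its median count at 5d post-MI was 1.5, and the 0 counts in replicate 8 allow up to 3 counts or 1.26 CPM by counting error alone, so that its log2 fold change of −2.67 (SE 0.61) has the largest error of the 10.

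Jun (ENSMUSG00000052684, chromosome 4, 95049034 to 95052222) ran from 44.0 to 130 CPM in sham kidneys (median 95.6), from 20.3 to 61.2 CPM at 5d post-MI (median 40.5) and from 84.8 to 190 CPM at 28d post-MI (median 128). At 5d post-MI, 5 of 8 kidneys were below every sham kidney, of which replicate 2 was the lowest, and the log2 fold change was −1.17 (SE 0.25). Junb (ENSMUSG00000052837, chromosome 8, 84974484 to 84978718) ran from 83.1 to 186 CPM in sham kidneys (median 157), from 17.6 to 104 CPM at 5d post-MI (median 52.2) and from 104 to 344 CPM at 28d post-MI (median 176). In 7 of 8 kidneys at 5d post-MI, Junb was below the whole sham group, and its log2 fold change was −1.52 (SE 0.31). Prdx2, on the opposite strand across Junb, was level across the groups, with means of 243, 236 and 236 CPM in sham kidneys and at 5d and 28d post-MI. The strand setting of the counting is not given in the sources used here, so that reads of genes on opposite strands may not have been told apart.

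Atf3, a stress-induced factor of the ATF/CREB family (ENSMUSG00000026628, chromosome 1, 191170296 to 191218039), was sparse too, with 2 to 20 counts per sham kidney, against 7 to 50 for Fosb. Its level ran from 0.746 to 5.63 CPM in sham kidneys (median 3.15), from 0 to 3.12 CPM at 5d post-MI (median 1.39) and from 3.91 to 10.4 CPM at 28d post-MI (median 6.50). The sham and 5d post-MI groups overlapped widely, with 2 of 8 kidneys below every sham kidney, and the log2 fold change was −1.06 (SE 0.37). At 28d post-MI, 6 of 6 kidneys were above the sham median and 4 of 6 were above every sham kidney.

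Ier2 encodes a short nuclear protein that growth factors induce (ENSMUSG00000053560, chromosome 8, 84661331 to 84662852). It ran from 53.7 to 132 CPM in sham kidneys (median 89.2), from 11.2 to 60.9 CPM at 5d post-MI (median 28.1) and from 77.5 to 255 CPM at 28d post-MI (median 126). Of the kidneys at 5d post-MI, 6 of 8 were below every sham kidney, with replicate 2 lowest, and the log2 fold change was −1.50 (SE 0.33). Btg2, an antiproliferative gene that p53 also induces (ENSMUSG00000020423, chromosome 1, 134075170 to 134079120), ran from 61.1 to 150 CPM in sham kidneys (median 96.9), from 14.8 to 71.1 CPM at 5d post-MI (median 29.4) and from 67.4 to 220 CPM at 28d post-MI (median 133). Here, too, 6 of 8 kidneys at 5d post-MI were below every sham kidney, and the log2 fold change was −1.48 (SE 0.33).

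Dusp1 encodes a phosphatase that switches off MAP kinases and so acts as a brake on the same signals (ENSMUSG00000024190, chromosome 17, 26505590 to 26562128). Its level ran from 101 to 311 CPM in sham kidneys (median 241), from 54.2 to 168 CPM at 5d post-MI (median 128) and from 220 to 474 CPM at 28d post-MI (median 344). The groups overlapped more than for most of the other genes, with 3 of 8 kidneys at 5d post-MI below every sham kidney, and its log2 fold change of −0.97 (SE 0.26) was the smallest of the 10. Ergic1, which the annotation places on the opposite strand across Dusp1, had means of 95.1, 91.1 and 95.9 CPM in the groups in the same order.

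At 28d post-MI, all 10 genes had a higher mean than in sham kidneys, but none was a DEG. The same sham kidneys were part of the contrast on which the genes were chosen. The values and p-values at 28d post-MI are thus not independent of that choice. The log2 fold changes ran from 0.17 for Fosb (SE 0.46) to 1.001 for Atf3 (SE 0.31), with a median of 0.46 beside −0.001 for all tested genes. The adjusted p-value from edgeR was 0.293 for Atf3 and between 0.520 and 0.963 for the other 9, in a contrast that called 0.0235% of genes upregulated. Jun, Ier2, Dusp1 and Atf3 had an unadjusted p-value under 0.05, as did 4.47% of all tested genes in the upward direction. DESeq2 called none of the 8 genes to which it gave an adjusted p-value, and 0.518% of the 3860 genes with one were upregulated. The groups overlapped for all 10 genes, whereas 0.188% of tested genes were higher in every kidney at 28d post-MI than in every sham kidney. These p-values do not show that the levels were equal. In simulated counts for this contrast edgeR called 172 of 200 genes changed by a log2 of 1. Those genes were drawn at random from all tested genes. The count does not say how often a change in the 10 genes would be called, whose SE ran from 0.24 for Jun to 0.46 for Fosb. Without a filter on low counts, Atf3 was called upregulated. Brown adipocyte markers had 22.3 to 363 CPM in sham kidneys and 12.8 to 93.2 CPM at 28d post-MI, with an unadjusted p-value under 0.05 downwards for 4 of 4 tested, and their part in these values was not tested.

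**Figure D2:**
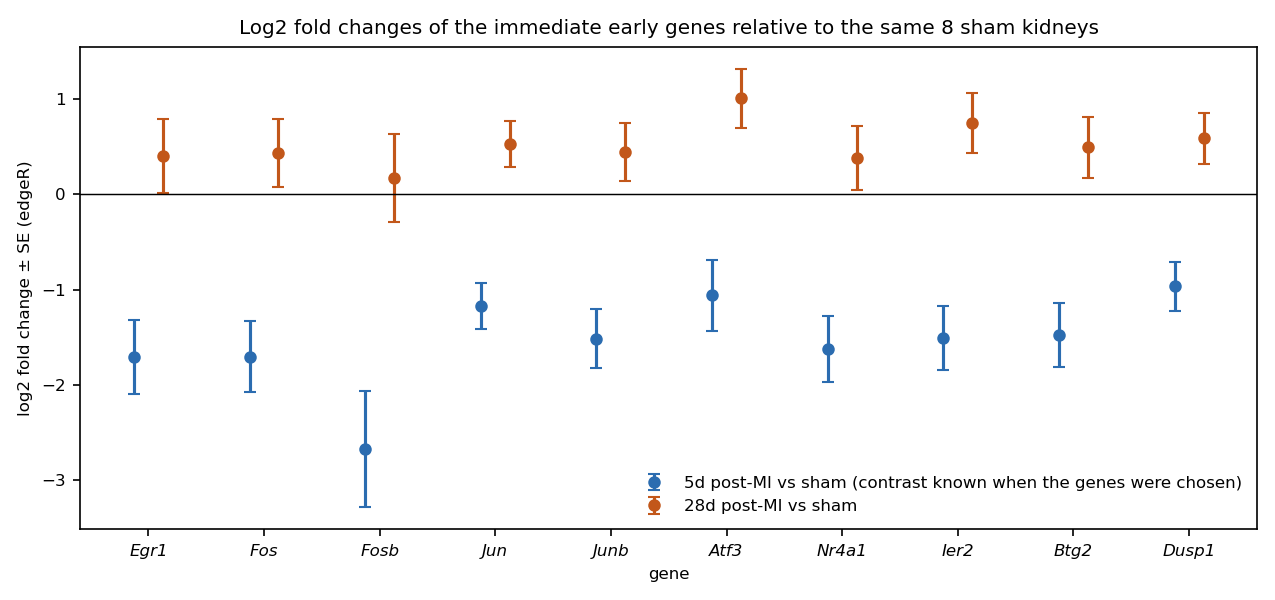
Log2 fold change with its SE (y axis, edgeR) of the 10 genes at 5d post-MI (blue, n = 8 kidneys) and at 28d post-MI (orange, n = 6), both relative to the same 8 sham kidneys. The values at 5d post-MI lie between −2.67 and −0.97, and those at 28d post-MI between 0.17 and 1.001.

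Between the times, the 10 genes were higher at 28d than at 5d post-MI, by log2 fold changes from 1.55 for Dusp1 (SE 0.27) to 2.84 for Fosb (SE 0.64), with a median of 2.03. The low values at 5d post-MI had led to the choice of the genes, so this contrast, too, describes them. In it, 9 of 10 were DEGs in edgeR and 0.336% of all genes were upregulated, with Fosb short of the threshold at an adjusted p-value of 0.0587. By DESeq2, 10 of 10 were DEGs and 0.587% of all genes upregulated. An unadjusted p-value under 0.05 was found for 10 of 10 and for 5.04% of all genes in that direction. Every kidney at 28d post-MI exceeded every kidney at 5d post-MI for 8 of the 10 genes, the exceptions being Fosb and Btg2, while 0.25% of all genes had non-overlapping higher groups. In a fit of these 2 groups alone, without the sham kidneys, 3 of the 10 were DEGs, namely Jun, Ier2 and Atf3. That fit called 26 DEGs among all its tested genes, in either direction. Of the tested red blood cell markers, 4 of 5 were downregulated between the times, and their part in the change of the 10 genes was not tested.

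Most pairs of the 10 genes ranked the kidneys in a similar order, but not all. In sham kidneys the rank correlation rho was −0.12 for Fosb with Dusp1, 0.02 for Nr4a1 with Dusp1 and 0.05 for Dusp1 with Atf3. Taking the mean over the genes of log2 CPM relative to the sham mean, sham kidneys ran from −0.65 (replicate 8) to 0.52 (replicate 1), kidneys at 5d post-MI from −3.05 (replicate 2) to −0.55 (replicate 1) and those at 28d post-MI from −0.22 (replicate 3) to 1.16 (replicate 4). At 5d post-MI, replicate 2 was the lowest kidney for 8 of 10 genes and replicate 8 followed with a mean of −2.64. Replicate 2 was also the kidney with the lowest sum of proximal tubule markers, 32740 CPM, and the part of this in its values was not tested. At 28d post-MI, replicate 4 was the highest kidney for 8 of 10 genes, and replicate 3 the lowest for 7 of 10. On the log2 scale, the spread between kidneys was wider at 5d post-MI than in sham kidneys for each of the 10 genes, with an SD of log2 CPM of 1.496 against 0.41 for Egr1 and of 0.55 against 0.50 for Jun at the ends. On the linear scale of CPM the order was the opposite for all 10, with an SD of 65.9 against 78.1 CPM for Egr1 and of 14.5 against 27.9 CPM for Jun. These spreads were not tested against each other. The heat map of kidneys and genes shows the gradient within each group.

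**Figure D3:**
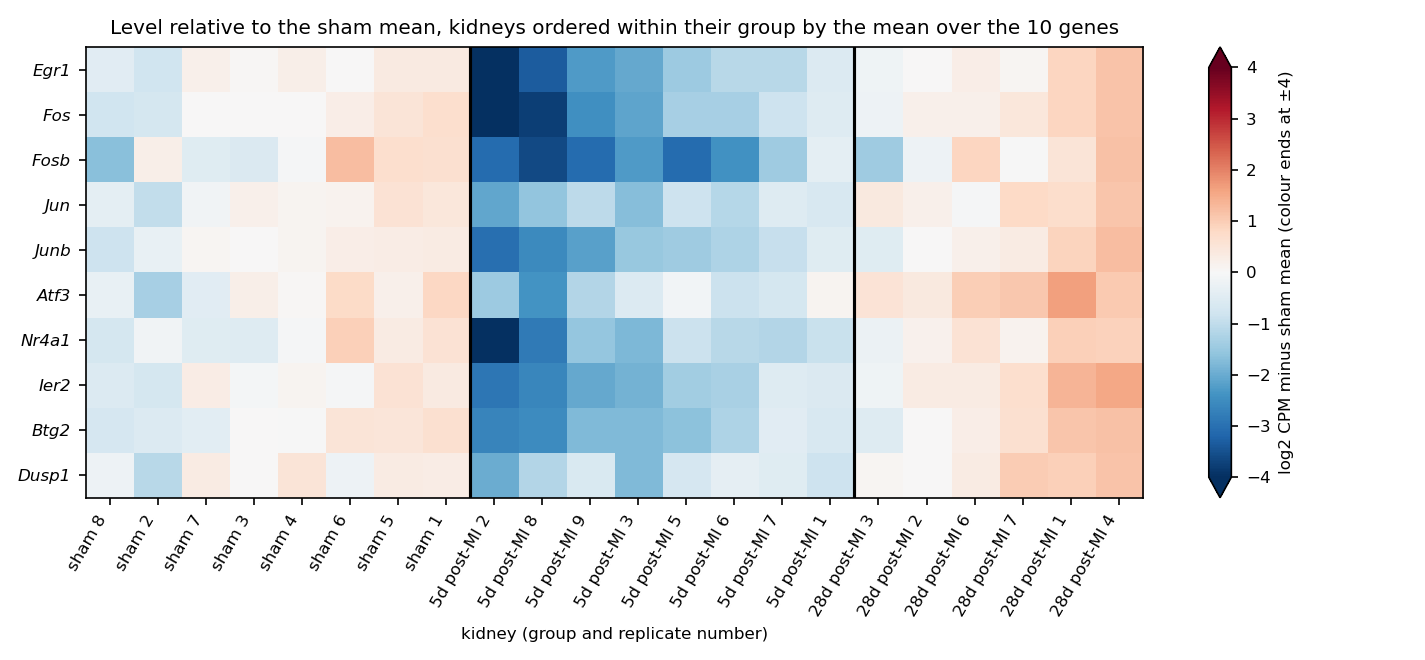
Log2 CPM minus the sham mean of each gene (colour, red higher and blue lower) in 22 kidneys (x axis, ordered within each group by the mean over the genes) for the 10 genes (y axis). Replicates 2 and 8 at 5d post-MI are the bluest columns, at means of −3.05 and −2.64, while some columns hold both colours, such as sham replicate 2, with 0.23 for Fosb and −1.31 for Atf3.

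Promoter sequences could be read for 8 of the 10 genes from RefSeq (GRCm38.p6), all but Egr1 and Ier2. The start is that of the RefSeq entry, and for Atf3, Nr4a1 and Dusp1 it lies well inside the longer gene span given above. The core of the cyclic AMP response element, TGACG on either strand within 250 bases before the start, was present in 7 of 8 and in 17.8% of 32851 promoters of the same length. The full palindrome TGACGTCA, which contains it, was present in Btg2 and Dusp1 and in 1.55% of all promoters. None of the 8 held a CArG box, the site of SRF, in this window, nor TGANTCA, the AP-1 element, against 1.47% and 6.75% of all promoters. The Egr1 element GCGNGGGCG occurred in Btg2, Fosb and Nr4a1 and in 4.70% of promoters, the ETS core CCGGAA in Nr4a1 and in 12.0%, and TATAAA in Fos and in 12.4%. A match describes letters and does not show that a factor binds there. A missing match does not show that a site is absent, since sites outside the window or with other letters were not searched.

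The 170 bases before the RefSeq start are printed to show the spacing of TGACG in 5 of the genes, with Jun as the gene without an exact match of it. Capitals mark TGACG or its reverse complement CGTCA, and further matches in Nr4a1 and Dusp1 lie upstream of the bases shown. The windows are chr12:85473720-85473889 (plus strand) for Fos, chr8:84978749-84978918 (minus) for Junb, chr15:101266676-101266845 (plus) for Nr4a1, chr1:134079156-134079325 (minus) for Btg2, chr17:26508473-26508642 (minus) for Dusp1 and chr4:95052223-95052392 (minus) for Jun.
Fos: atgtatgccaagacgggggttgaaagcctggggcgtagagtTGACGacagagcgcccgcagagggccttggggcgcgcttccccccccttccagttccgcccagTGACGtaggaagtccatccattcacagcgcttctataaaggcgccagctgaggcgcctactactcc
Junb: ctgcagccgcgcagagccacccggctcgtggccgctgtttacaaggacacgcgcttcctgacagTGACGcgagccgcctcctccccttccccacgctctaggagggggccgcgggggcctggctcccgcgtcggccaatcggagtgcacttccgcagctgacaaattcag
Nr4a1: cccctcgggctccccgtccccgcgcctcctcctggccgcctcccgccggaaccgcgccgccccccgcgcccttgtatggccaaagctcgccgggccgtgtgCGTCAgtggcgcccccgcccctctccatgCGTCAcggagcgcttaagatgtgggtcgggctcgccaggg
Btg2: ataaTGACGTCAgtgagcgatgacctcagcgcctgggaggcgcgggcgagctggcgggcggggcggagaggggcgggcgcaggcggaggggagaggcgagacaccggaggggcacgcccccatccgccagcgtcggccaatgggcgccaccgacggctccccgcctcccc
Dusp1: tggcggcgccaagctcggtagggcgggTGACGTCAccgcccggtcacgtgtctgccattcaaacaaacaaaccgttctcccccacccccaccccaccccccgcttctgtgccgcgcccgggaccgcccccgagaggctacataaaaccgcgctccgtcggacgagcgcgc
Jun: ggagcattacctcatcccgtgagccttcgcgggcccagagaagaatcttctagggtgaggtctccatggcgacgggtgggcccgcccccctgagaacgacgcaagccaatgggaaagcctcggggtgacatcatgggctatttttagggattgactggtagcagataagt

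Within groups, the immediate early genes varied together from kidney to kidney. Over the 22 kidneys with group means removed, the Pearson correlation of log2 CPM between genes had a median of 0.752 over 45 pairs, and 42 pairs exceeded 0.5. With the replicate number also removed as a block, the median fell to 0.470, and the values and permutation p-values that follow are without the block. Over all 81657810 pairs of tested genes, the median was −0.00085 and 1.72% exceeded 0.5. All 45 pairs were above 0 in each of the 3 groups taken alone, with a median of 0.743 for sham, 0.834 for 5d and 0.823 for 28d post-MI. Both values of a pair come from the same library, and the genes were selected together, so that the medians are descriptions. A first principal component over the 10 genes, after removal of group means, carried 78.0% of their variance and the second 9.33%.

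Junb and Ier2 were the closest pair, with r = 0.95 and rho = 0.93 (within-group permutation test, two-sided, p = 1e-05 for each, the smallest that 100000 permutations can give, adjusted p = 3e-05 and 6.4e-05 over 45 pairs). Without the 2 kidneys farthest from the median of Junb, r was 0.93. Fos and Junb followed closely, with r = 0.95 and rho = 0.98 (permutation p = 1e-05 for each, adjusted p = 3e-05 and 6.4e-05), and r = 0.93 without 2 kidneys. Of the 10 genes, Fos had the highest correlation with the mean of the other 9, at r = 0.96, and Fosb and Dusp1 the lowest, at 0.68 each. Fosb and Dusp1 were also the most distant pair, with r = 0.26 and rho = 0.18 (permutation p = 0.28 and 0.46, adjusted p = 0.28 and 0.46), and their correlation in sham kidneys was 0.01. In sham kidneys Fosb instead followed Nr4a1, with r = 0.93 and rho = 0.95 in 8 kidneys, a pair noticed after its values were seen. In sham replicate 2, Fosb stood at 0.23 relative to the sham mean on the log2 scale and Atf3 at −1.31. Fosb, Dusp1 and Atf3 had the lowest correlations with the mean of the other 9. Among the 21 pairs without these 3 genes, the lowest correlation was 0.668 and the median 0.874. Both values follow in part from leaving out the genes with the lowest correlations. The adjusted permutation p-value was under 0.05 in 44 of 45 pairs by r and in 41 of 45 by rho. The exceptions by rho were Fosb with Jun and with Dusp1, Nr4a1 with Dusp1, and Dusp1 with Atf3. The permutation test was not run on pairs of other genes. These counts therefore have no share over all genes beside them and are descriptions.

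**Figure D4:**
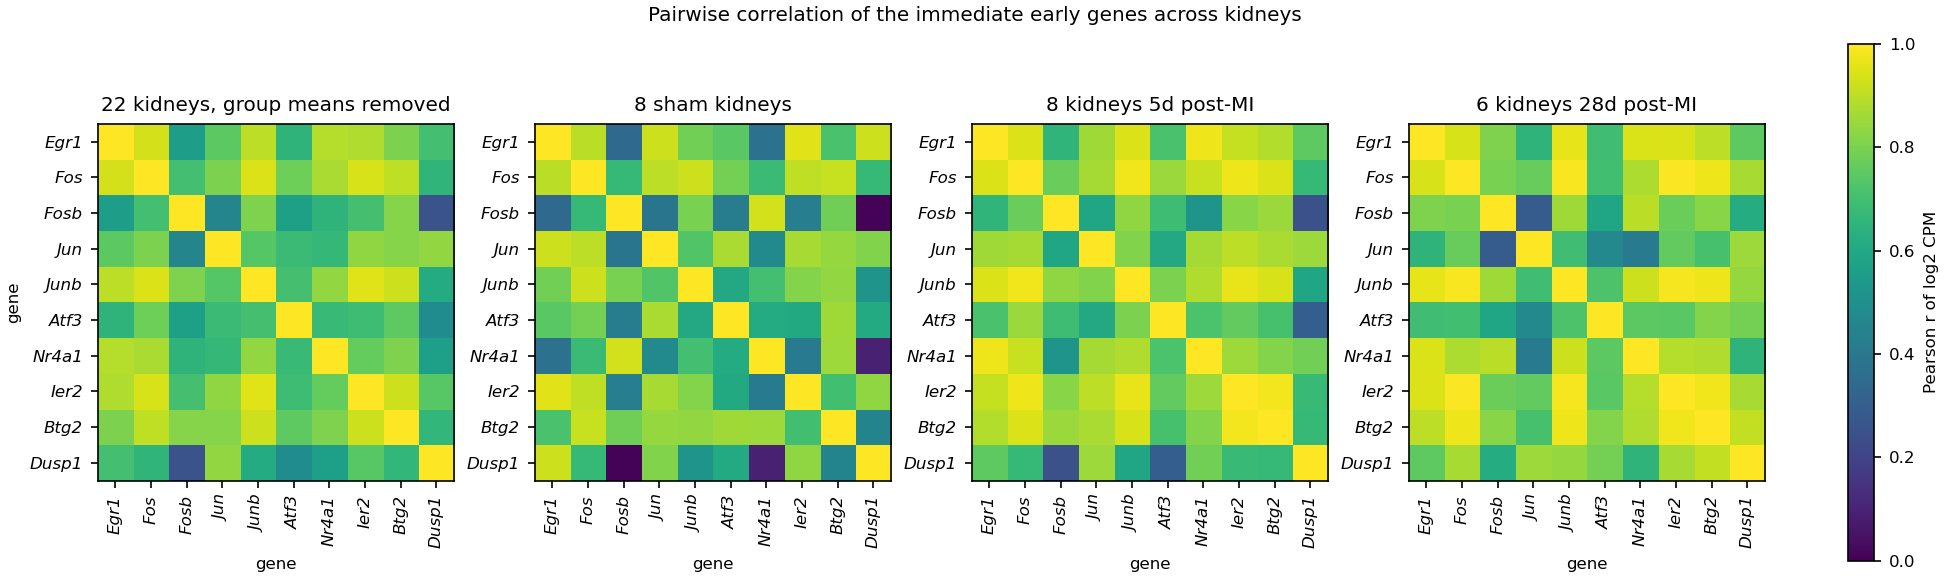
Pearson correlation of log2 CPM (colour, from 0 to 1) between the 10 genes (both axes), over 22 kidneys with group means removed and within each group alone. Over 22 kidneys, the rows of Fosb and Dusp1 are darkest, and the pair of both is lowest at r = 0.26. At 28d post-MI alone, Jun has the lowest median r, 0.69, and Fosb with Jun is the lowest pair at r = 0.29.

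**Figure D5:**
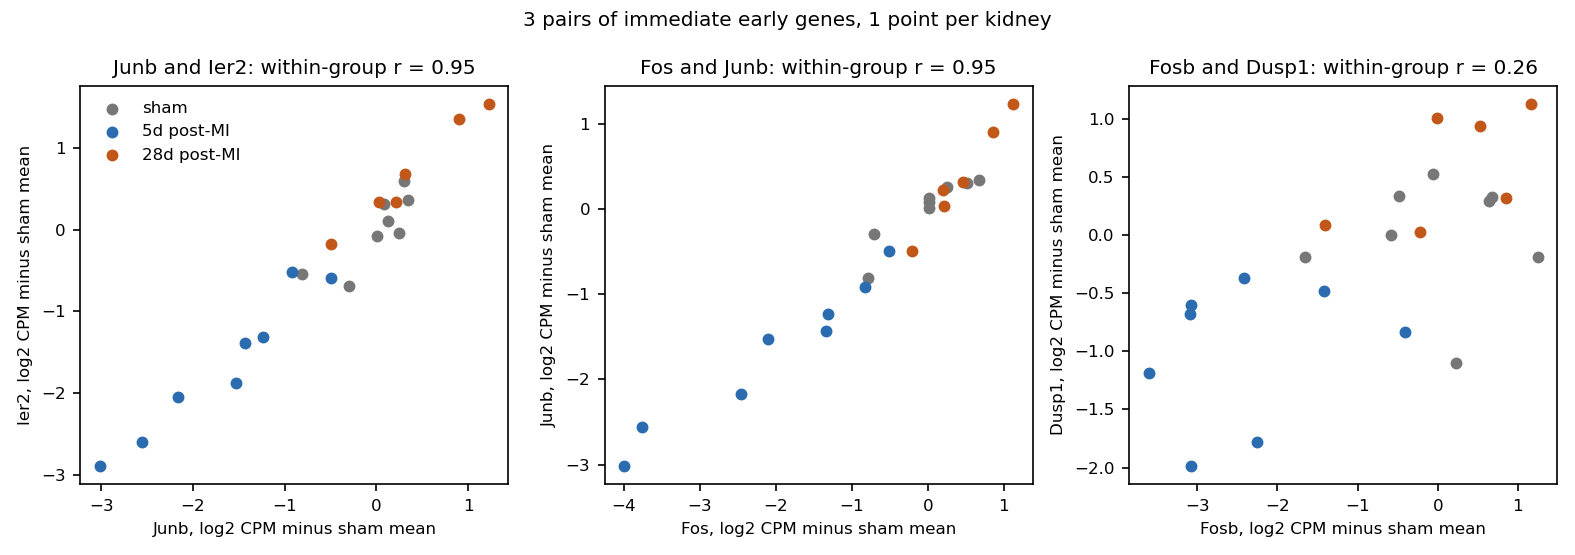
Log2 CPM minus the sham mean of 1 gene against another (both axes), with 1 point per kidney, for the closest pair, Junb with Ier2, for Fos with Junb and for the most distant pair, Fosb with Dusp1. The first 2 panels form narrow bands through all groups, and the third, at a within-group r of 0.26, does not.

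The common level of the 10 genes, the mean of their centred and scaled log2 CPM, was set beside depth and the sums of cell markers and other gene lists. Over the 22 kidneys with group means removed, given as a description, r was 0.07 with total counts, −0.13 with the mitochondrial share of counts, −0.11 with red blood cell markers, −0.16 with heat shock chaperones and −0.03 with adrenal cortex markers. It was 0.29 (rho = 0.32) with the sum of other immediate early genes and 0.35 (rho = 0.29) with other AP-1 family subunits. With the other immediate early genes, r was 0.55 in sham kidneys alone, 0.03 at 5d and 0.78 at 28d post-MI. Among these sums, the highest value over the 22 kidneys was that of the factors of AU-rich mRNA decay (r = 0.74, rho = 0.81). Zfp36, the most abundant gene of that list, had r = 0.85 alone. The others did not follow as a class, with 0.42 for Zfp36l2, 0.30 for Hnrnpd and 0.05 for Tia1. Elavl1 had −0.18, Zfp36l1 −0.24, Khsrp −0.35 and Tial1 −0.38. Of the sums, neutrophil markers (r = 0.51, rho = 0.48) and urothelium markers (r = 0.50, rho = 0.51) came next. The neutrophil list had no gene past the count filter. Intermediate values were found for the proximal tubule (r = 0.38, rho = 0.09), macrophages and leukocytes (r = 0.32, rho = 0.12), the endothelium (r = −0.29, rho = −0.32) and adipocytes (r = 0.28, rho = 0.35). Without the 2 kidneys farthest from the median of the marker sum, these r were −0.20, 0.11, −0.03 and 0.38 in the same order. The correlations differed between the groups taken alone, in 8, 8 and 6 kidneys. For sham, 5d and 28d post-MI in turn, r was −0.51, −0.43 and 0.85 with endothelium markers, 0.56, 0.20 and −0.87 with brown adipocyte markers and −0.26, 0.36 and −0.84 with heat shock chaperones. In the same order, r was 0.31, 0.71 and 0.125 with neutrophil markers and 0.125, 0.63 and 0.89 with urothelium markers. The part of these cells in the level of the 10 genes was not tested. Without the 3 kidneys with adrenal cortex markers above 10 CPM, a choice made after the data were seen, the median correlation of the 45 pairs was 0.804, and the median log2 fold changes were −1.56 at 5d and 0.43 at 28d post-MI.

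Outside the 10 genes, the zinc finger gene Zfp36 followed them most closely. It encodes tristetraprolin, which binds AU-rich elements and directs mRNAs to decay, and it correlated with their common level at r = 0.85 (22 kidneys, group means removed). Its mean was 258 CPM in sham kidneys, 116 CPM at 5d post-MI and 333 CPM at 28d post-MI, and its log2 fold change was −1.15 (SE 0.27, adjusted p = 0.133 from edgeR) at 5d and 0.37 (SE 0.28, adjusted p = 0.778 from edgeR) at 28d post-MI. Among the genes that came after Zfp36 were Snrpn, Prkce, Rasd1, Ube2b, Fam49b, Mindy2, Txnip and Rpn2, with r from 0.79 to 0.72, of which Snrpn, Prkce and Ube2b had log2 fold changes between −0.19 and 0.12 in all 3 contrasts. The most opposite gene was Arl8b, at r = −0.82, followed by the endothelial receptor gene Flt1, at −0.79.

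Of 42 other immediate early genes on a list, 35 were tested, and their median log2 fold change was −0.14 at 5d and 0.23 at 28d post-MI. At 5d post-MI, 25 of the 35 had a log2 fold change below 0, as had 49.9% of all tested genes. An unadjusted p-value under 0.05 was found for 9 downwards, beside 3.96% of all tested genes, and for 1 upwards, and Ccn1, which encodes a matricellular protein, was the only one downregulated after adjustment, with 185 CPM in sham kidneys and 83.1 CPM at 5d post-MI (log2 fold change −1.16, SE 0.21, adjusted p = 0.0423 from edgeR). Errfi1 and Klf9, the most abundant of the list by mean CPM, had log2 fold changes of 0.11 (SE 0.17) and 0.17 (SE 0.09). Between 5d and 28d post-MI, 4 of the 35 were upregulated, namely Ccn1, Zfp36, Arc and Ier5l, with log2 fold changes of 1.59, 1.52, 1.57 and 0.87. DESeq2 called 3 of the 35 downregulated at 5d post-MI and 8 upregulated between the times. Myc, a classic member of the same class, ran against the common level of the 10 genes at r = −0.46. By group, its r was −0.52 in sham kidneys and −0.67 at 5d, but 0.24 at 28d post-MI, and its mean level was low, at 3.42 CPM.

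Of 9 other tested AP-1 family subunits, none was a DEG relative to sham at either time in edgeR or in DESeq2, which gave 9 of them an adjusted p-value at 5d and 3 at 28d post-MI. An unadjusted p-value under 0.05 in edgeR was found for 4 of them at 5d post-MI, 3 lower and 1 higher, and for 3 at 28d post-MI, 2 lower and 1 higher, beside 7.89% and 8.69% of all tested genes in either direction. Jund, the Jun family member that is not strongly inducible, was the only one called between 5d and 28d post-MI, by a log2 fold change of 0.39 (SE 0.09, adjusted p = 0.0433 from edgeR), while Maf and Mafg had −0.07 and 0.18. Of 24 tested genes of SRF and MAP kinase signalling, which lie upstream of the 10 genes, none was called in any contrast in edgeR or in DESeq2, which gave 6 of them an adjusted p-value at 28d post-MI. At 5d post-MI, 1 of them had an unadjusted p-value under 0.05, and the median log2 fold change was 0.015. The kinase gene Map2k2 had a log2 fold change of −0.04 at 5d post-MI, and the GTPase gene Hras 0.07. Of 8 tested factors of AU-rich mRNA decay, Zfp36 and Zfp36l1 were upregulated at 28d relative to 5d post-MI, and Hnrnpd had a log2 fold change of −0.21 there. Among 12 heat shock chaperones, Dnajb1 and Hsp90aa1 were upregulated between the times, by 1.05 and 0.47 on the log2 scale, and 12 of 12 had a log2 fold change above 0, whereas Hsp90ab1, Hspa8 and Hspd1, the most abundant of the list, were not called.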

How the data were processed

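The samples were kidneys of 8 sham-operated mice, 9 mice at 5d and 7 mice at 28d post-MI. Per the labels and methods, the authors made MACE libraries with unique molecular identifiers, trimmed the reads with Cutadapt, mapped them and counted them on genes with HTSeq. The methods name mm10 and the submitters' processing notes name mm39 with Bowtie2. The authors deposited whole-number counts per gene without normalization, which were used here, and values they call tpm, which were not. Of 48 columns of values, 22 count columns were used and 26 were not used, namely 24 of tpm and 2 of counts that share a name and could not be assigned to a kidney, so that 22 of 24 kidneys entered. Of the identifiers, 51948 had a symbol in GENCODE M21 and 4993 had none.

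The 10 genes, the other gene lists and the comparisons were chosen with earlier results of these data known. Genes were kept by filterByExpr (minimum count 10), normalized by TMM and fitted by robust quasi-likelihood F tests in edgeR 4.0.16 (R 4.3.3), two-sided, with 3 groups in 1 fit and Benjamini-Hochberg adjustment over 12780 genes at 0.05. DESeq2 1.42.0 was an alternative. Within-group correlations used log2 CPM with a prior count of 2 (Python 3.11.15, numpy 2.4.6) and 100000 permutations. The fits were tested on simulated data. Other genes were named as the 3 most abundant tested genes of a list of signalling, decay or chaperone genes, those called in a contrast, the genes nearest to the common level of the 10, genes that overlap one of the 10, and Myc and the most opposite genes, chosen after their values were seen. Some genes that these rules name are not reported here. Marker lists are given as sums, with the genes called in a contrast. Kidneys of the same number in different groups had whole-profile correlations of −0.127 to 0.0899, so that the number was not treated as pairing. Within groups, no column was a mere resampling of another, since counts of the 71 pairs differed by more than sampling noise (chi-squared over its degrees of freedom, 1.77 to 8.10). Pairs across groups were not checked in this way, and the check cannot tell a second library of 1 mouse from another mouse. Intervals and p-values measure the spread between mice, and counting limits cover counting error only. Alternatives were another normalization, no filter, DESeq2, 2 groups alone, the replicate number as a block and leaving out each kidney.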

Additional observations from a re-analysis of the deposited data

Results flagged for a closer look

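In 42 groups of kidneys tested for a value far from the others, 3 held one, where chance gives about 1 in 20. Among the immediate early genes this was Fosb at 5d post-MI, whose highest kidney, replicate 1, had 5.54 CPM. The others were the lowest sum of red blood cell markers among sham kidneys, 2203 CPM, and the highest sum of adrenal cortex markers at 5d post-MI, 66.5 CPM.

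The log2 fold changes relative to sham kidneys differed between 28d and 5d post-MI, by the contrast of the times in edgeR, for 9 of the 10 genes. The differences were 2.10 for Egr1, 2.14 for Fos, 1.69 for Jun, 1.95 for Junb, 2.25 for Ier2, 1.998 for Nr4a1, 1.97 for Btg2, 1.55 for Dusp1 and 2.06 for Atf3, with adjusted p-values from 0.00290 to 0.0206. The genes had been selected on their low values at 5d post-MI, so these are descriptions. Of the other listed genes, 13 differed as well, with 0.870 for Ier5l, 1.52 for Zfp36, 1.57 for Arc, 1.59 for Ccn1, 0.385 for Jund, 0.497 for Zfp36l1, 1.05 for Dnajb1 and 0.474 for Hsp90aa1. The renin gene Ren1 had −1.15, and the haemoglobin genes had −1.78 for Hba-a1, −1.80 for Hba-a2, −1.75 for Hbb-bs and −1.88 for Hbb-bt.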

How the results depend on the processing

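The directions of the 10 genes held in the alternatives run, except for Fosb at 28d post-MI relative to sham, at −0.082 without 28d replicate 4. Its other values ran up to 0.40 with each kidney left out and to 0.44 without the 3 kidneys with adrenal cortex markers. The number of DEGs at 5d post-MI, 9, became 5 with total counts, 80 without a filter, 35 in DESeq2, 2 with 2 groups alone, 2 with the replicate block, 2 without the 3 kidneys with adrenal cortex markers, and 1 to 38 with each kidney left out (38 without 5d replicate 1). At 28d post-MI, 3 DEGs became 1, 94, 30, 31 and 24 in the first 5 of these alternatives, and 0 to 29 with each kidney left out (0 without 28d replicate 2 or 7, 29 without sham replicate 8). Between the times, 53 became 160 without a filter, 93 in DESeq2, 26 with 2 groups alone, 80 with the replicate block, and 41 to 84 with each kidney left out. Of the 10 genes, the calls at 5d post-MI went from 0 to 1 without a filter (Junb), to 8 in DESeq2 and to 6 without 5d replicate 1, with 0 to 6 over the kidneys left out. At 28d post-MI they went from 0 to 1 without a filter, and between the times from 9 to 3 with 2 groups alone, with 8 to 10 over the kidneys left out. Egr1 was not called between the times without 28d replicate 4 or without the 3 kidneys with adrenal cortex markers, and Fosb was called without sham replicate 6 or 8, 5d replicate 1 or 28d replicate 3.

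With the replicate block, the median correlation of the 45 pairs within groups, 0.752, fell to 0.470, while 10 of the 10 genes were called between the times. It ranged from 0.736 to 0.779 with each kidney left out. The cause of these differences was not tested. The low counts of Fosb and Atf3, with a median of 1.5 and 4 counts at 5d post-MI, limit what can be said of them.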

Other observations

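The number that a kidney carries in the labels ran with the level of the immediate early genes across groups, although it was not linked to the whole profile. Relative to its own group mean, the mean log2 level of the 10 genes was above 0 in all 3 kidneys numbered 1, at 0.52 in sham kidneys, 1.09 at 5d and 0.49 at 28d post-MI. It was below 0 in all 3 kidneys numbered 2, at −0.63, −1.41 and −0.38, and in both kidneys numbered 8, at −0.65 and −0.9996. Of 18 pairs of kidneys that carry the same number in different groups, 14 lay on the same side of their group means, and of 8 numbers shared between groups, 6 had all their kidneys on the same side. Kidneys numbered 6 and 7 were the exceptions. The sources used here do not say what the number stands for, and the pattern was seen in the data and not tested.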
